A study of Mus musculus with 6 samples.

Results

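The genes described here encode the proteins of homologous recombination and of the Fanconi anemia pathway, which repair DNA breaks and DNA interstrand crosslinks. They were chosen by name, as the entries of the deposited expression table whose symbol stood on a list of 47 genes drawn up from known function, and all 47 were among the 41079 genes in the table. Expression was measured by RNA sequencing in D10 T cells of Mus musculus, a cloned CD4+ helper T cell line that recognises an antigen from chicken. By the labels all libraries came from this clone, although the levels of Cd4 and Trac given below differed between the replicates. The 3 non-acclimated libraries came from cells kept at 37°C for 24 h and the 3 cold-acclimated libraries from cells cultured at 26°C for 24 h. The labels name no genetic change and no other treatment, and both groups shared the same culture medium with serum and antibiotics. The comparison asks which transcripts changed in the cells while they adapted to the lower temperature.

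Homologous recombination mends a broken chromosome by copying the intact sister chromatid, and is therefore used mainly after DNA has been replicated. Nucleases first resect the broken ends, BRCA1 and BRCA2 with PALB2 then prepare the single-stranded DNA for strand exchange, and helicases and nucleases finally take apart the joined molecules. In the Fanconi anemia pathway, a core complex attaches ubiquitin to FANCD2 and FANCI at a crosslink between the DNA strands, and recombination completes the repair. The kinases ATM and ATR, with CHK2 and CHK1 as their targets, signal the damage and hold the cell cycle. In T cells, transcripts of many of these genes are known to be more abundant when the cells divide.

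Sequences near the starts of these genes were examined for motifs known from genes of the cell cycle. The promoter table of RefSeq on GRCm38.p6, which gives 250 bases before to 50 bases after each start, held 37 of the 47 genes. The E2F-type motif was searched as TTTCCCGC, TTTCGCGC, TTTGCCGC or TTTGGCGC on both strands, and none of the motifs searched contains another. It was found for 7 of the 37 genes (18.9%), namely Bard1, Brca2, Chek2, Fancg, Rad51c, Rmi1 and Topbp1, against 704 of all 27025 genes in the table (2.6%). Windows of 40 bases are shown for 4 of them, on the strand of the gene, since Brca2 and Fancg were downregulated below while Bard1 and Topbp1 missed the threshold. The capitals mark the motif. The windows lie at chr1:71103158-71103197 for Bard1, chr5:150522437-150522476 for Brca2, chr4:43010330-43010369 for Fancg and chr9:103305182-103305221 for Topbp1, on GRCm38.p6.
Bard1: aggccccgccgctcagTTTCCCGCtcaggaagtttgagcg
Brca2: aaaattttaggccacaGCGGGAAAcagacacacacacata
Fancg: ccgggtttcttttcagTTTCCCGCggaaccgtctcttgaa
Topbp1: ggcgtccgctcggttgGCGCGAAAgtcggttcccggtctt

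The motif TTTCCCGC was thus read in the direction of the gene for Bard1 and Fancg and in the opposite direction for Brca2. Topbp1 held TTTCGCGC in the opposite direction. CCAAT was found for 22 of the 37 genes (59.5%), against 41.1% of all genes in the table. TTTGAA, the core of the CHR motif, was found for 3 (8.11%), against 20.2% of all genes. The E2F-type motif was held by 4 of the 19 genes with a promoter that were downregulated below, and by 3 of the 17 that were tested and were not. A match is a description of the letters and was not tested as a binding site.

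Between 16899628 and 31290854 reads per library were assigned to genes. These numbers were recovered from the steps in which TPM values (a measure of abundance in which counts are divided by gene length) rise. The T cell markers Cd3e, Trbc2 and Gata3 were high in all 6 libraries, with Cd3e between 476 and 874 TPM. Trac, the constant part of the T cell receptor alpha chain, stood at 207, 15.0 and 185 TPM in replicates 1, 2 and 3 at 37°C and at 184, 12.8 and 129 TPM at 26°C, so that replicate 2 was low in both conditions. Of 15 markers of T cells, 13 passed the filter on low values, and the summed level of the 15 ranged from 5770 to 7120 TPM at 37°C and from 5180 to 6200 TPM at 26°C. Il2ra alone of the 13 was called downregulated by the test described below (16.0% of all genes). It stood at 1360, 1670 and 2030 TPM at 37°C and at 327, 217 and 313 TPM at 26°C (log2 fold change -2.56, adjusted p = 0.0067 in limma). Cd4, which defines the labelled cell type, stood at 1.09, 0.0351 and 310 TPM in replicates 1, 2 and 3 at 37°C and at 1.30, 0.352 and 328 TPM at 26°C. It was therefore near 0 in replicates 1 and 2 of both conditions. Cd5 and Trbc1 were at or near 0 in all libraries. Of 10 markers each for B cells and for macrophages and monocytes, 2 each passed the filter, and the summed levels lay between 3.43 and 6.23 TPM and between 2.90 and 21.6 TPM. Replicate 3 also stood apart in the response of the repair genes, as described below, and counts are therefore given with and without it. By the labels, the replicates stand for old and new batches of RNA extraction, but no library is assigned to either, so batch and replicate cannot be told apart. The study's methods describe the replicates as independently prepared. The p-values measure the spread between these preparations of what the labels give as a single line, not between animals. That spread includes differences between cultures such as those of Cd4 and Trac. In bulk RNA, fewer cells in the phases of the cell cycle that use a gene and less RNA of that gene per cell cannot be told apart.

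Homologous recombination and Fanconi anemia genes were lower in cold-acclimated T cells. Of the 47 genes, 46 passed the filter (a mean TPM of at least 1) and were tested with limma on log2(TPM + 1), and 24 of the 46 (52.2%) were called downregulated, against 16.0% of all 12227 genes tested. None was called upregulated by limma (2.63% of all genes), and at an unadjusted p under 0.05 only Top3a was higher. A call required an adjusted p (Benjamini-Hochberg) below 0.05 and a change of at least 1 on the log2 scale, and all 24 genes were lower in all 3 replicates. The same 24 genes were the only ones lower at an adjusted p under 0.05 without regard to size (17.4% of all genes), and 0 were higher (3.30% of all genes), although 1, Top3a, was higher after another scaling of the libraries and with voom. The fold change was negative for 43 of the 46 (93.5%), against 66.5% of all genes. The 3 cold-acclimated values lay below all 3 non-acclimated values for 30 genes (65.2%), against 31.4% of all genes, and above them for 1 gene, Top3a, against 9.69%. The median log2 fold change was -1.66, against -0.34 for all genes tested, a distance of -1.32 with an SD of 0.54 over the 3 replicates. The added 1 shrinks the changes of genes with few transcripts on this scale.

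Median of ratios scaling, which sets each library by the median ratio of its genes, moved the median of all genes to 0.03 and called 1052 genes downregulated and 840 upregulated instead of 1954 and 321. With this scaling 22 of the 46 genes remained downregulated (47.8%, against 8.60% of all genes), and 0 were upregulated (6.87% of all genes), with a median of -1.31. Rad51d and Slx1b were the 2 that lost the call. With limma voom on the recovered reads 22 genes were called downregulated (9.51% of all genes) and 0 upregulated (5.91%). The summed level of the repair genes was 1180, 1240 and 1270 TPM in replicates 1, 2 and 3 at 37°C and 386, 346 and 794 TPM at 26°C. The conditions did not overlap, and replicate 3 kept the highest level in the cold.

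Differences between the conditions were smaller in replicate 3 than in replicates 1 and 2. The median difference between the conditions was -1.78, -2.11 and -0.88 in replicates 1, 2 and 3, while the median of all genes was -0.32, -0.44 and -0.24. In replicate 3, 40 of the 46 genes were lower in the cold (64.2% of all genes), compared with 43 in replicate 1 (64.1%) and 45 in replicate 2 (67.6%). A decrease of at least 1 on the log2 scale was seen for 33 genes in replicate 1 (26.5% of all genes), 37 in replicate 2 (30.8%) and 21 in replicate 3 (15.3%). For 41 of the 46 genes, the difference in replicate 3 lay above the mean of the other replicates. Without replicate 3, 34 genes were called downregulated (25.3% of all genes). With the replicate number as a block, which removes differences shared by both libraries of a replicate, 31 were called (21.9% of all genes), among them all of the 24, and 0 were upregulated (3.75% of all genes). The 7 additional genes were Bard1, Xrcc2, Blm, Fancb, Fancl, Chek1 and Topbp1, of which Fancb and Chek1 alone were also called with the block and median of ratios scaling together. Leaving out 1 library gave between 7 and 34 calls, and the share of all genes called moved too. Without the non-acclimated library of replicate 1, 2 or 3, 10, 7 and 20 repair genes were called, against 4.31%, 2.82% and 14.9% of all genes. Without the cold-acclimated library of replicate 1, 2 or 3, 9, 13 and 34 were called, against 3.68%, 4.91% and 22.3% of all genes. The call did not depend on any single library for 7 genes, namely Palb2, Brca2, Rad54l, Rad50, Mus81, Fanci and Atm. The plot of changes by replicate shows all 46 genes.

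**Figure D1:**
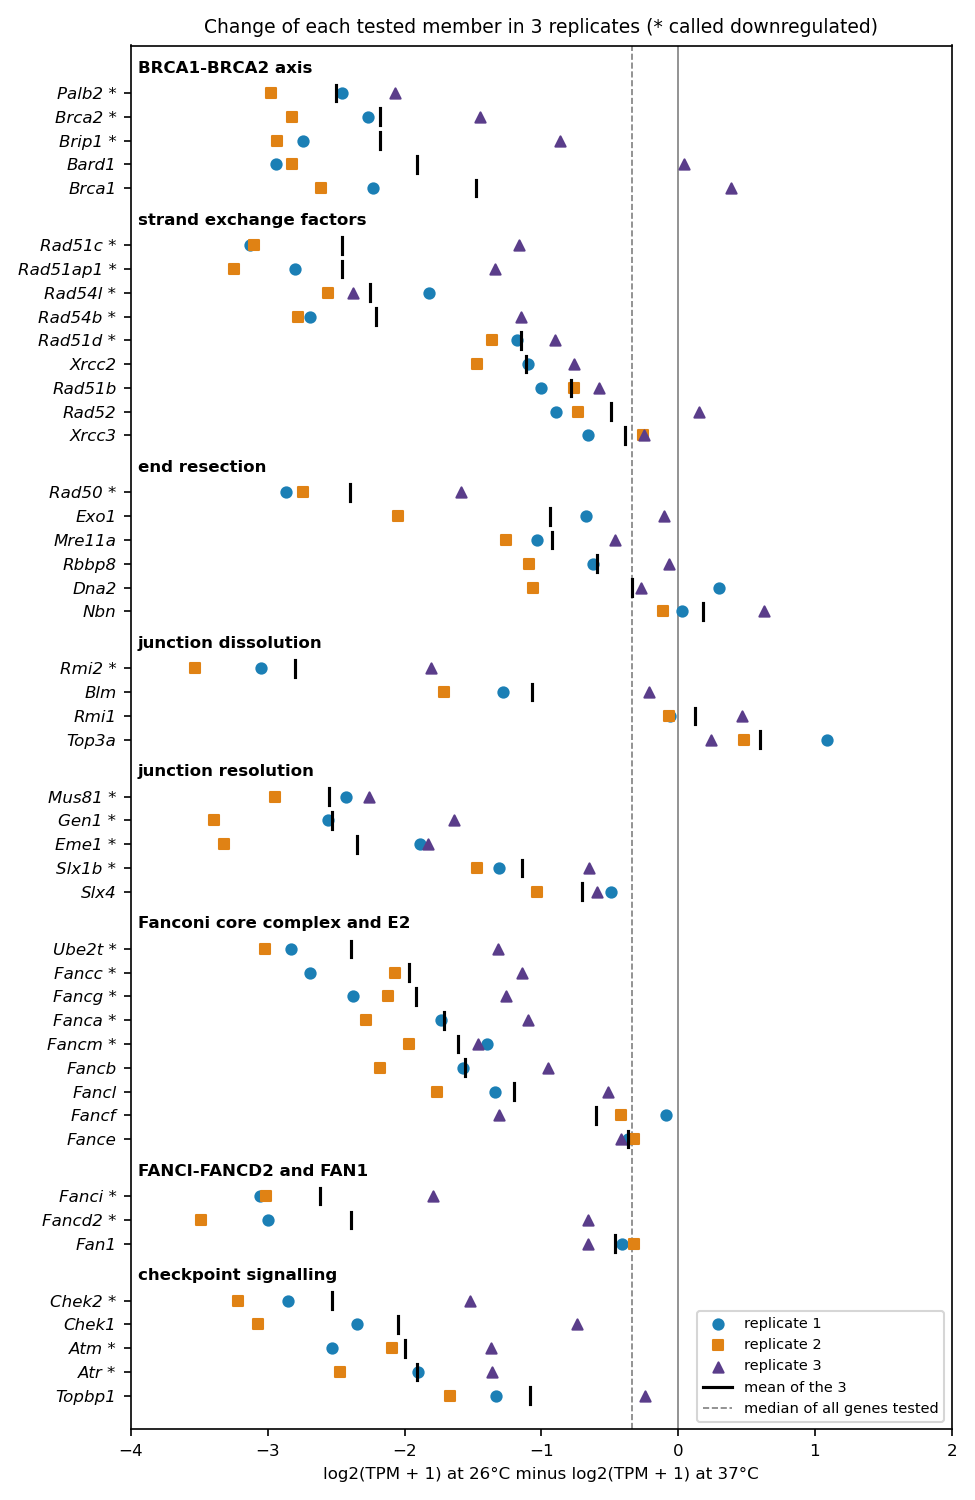
Difference in log2(TPM + 1) between 26°C and 37°C for the 46 tested genes, grouped by role, with 1 symbol per replicate and a bar for the mean of the 3. The dashed line is the median of all 12227 genes tested (-0.34), and asterisks mark the 24 genes called downregulated. Symbols of replicate 3 lie to the right of the mean of the other replicates for 41 genes.

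The BRCA1-BRCA2 axis, which acts ahead of strand exchange, had 3 of its 5 genes downregulated and a median log2 fold change of -2.18. The counts by role, here and below, stand beside the 16.0% of all genes that were downregulated. Palb2, the bridge between BRCA1 and BRCA2 (chr7:121706485-121732203 on GRCm39, as are all gene positions below), was measured at 9.95, 12.2 and 7.25 TPM at 37°C and at 0.991, 0.681 and 0.960 TPM at 26°C. All cold-acclimated libraries lay at a similar low level, on 30 to 48 recovered reads each, and the ratio of the means was 11.2. Its log2 fold change was -2.50 (SE 0.29, adjusted p = 0.0068 in limma). Brca2, a mediator of strand exchange (chr5:150445759-150493612), was measured at 13.5, 15.3 and 12.4 TPM at 37°C and at 1.99, 1.31 and 3.91 TPM at 26°C. The groups were far apart, and its log2 fold change was -2.18 (SE 0.34, adjusted p = 0.0090 in limma). Brip1, a helicase that binds BRCA1, was measured at 24.6, 22.1 and 21.3 TPM at 37°C and at 2.83, 2.02 and 11.3 TPM at 26°C. Replicate 3 was the highest cold-acclimated library, and the log2 fold change of -2.18 (SE 0.51) had an adjusted p of 0.025 in limma.

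Brca1 and its partner Bard1, which together form a ubiquitin ligase, are described here because their values in replicate 3 stood out. Brca1 was measured at 31.0, 30.3 and 27.8 TPM at 37°C and at 5.81, 4.13 and 36.6 TPM at 26°C. The cold-acclimated library of replicate 3 was the highest of all 6, whereas those of replicates 1 and 2 were the lowest. The log2 fold change was -1.48 (SE 0.69, adjusted p = 0.16 in limma) over all libraries and -2.42 (adjusted p = 0.0038 in limma) without replicate 3. Bard1 was measured at 27.8, 24.7 and 18.0 TPM at 37°C and at 2.76, 2.63 and 18.5 TPM at 26°C. Its cold-acclimated value in replicate 3 was within the range seen at 37°C. The log2 fold change of Bard1 was -1.91 (SE 0.64), with an adjusted p of 0.069 in limma, 0.041 with the replicate block and 0.0035 without replicate 3.

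Of the 9 genes of strand exchange, 5 were downregulated, and the median was -1.15. Rad54l, a translocase that drives strand exchange (chr4:115951458-115980875), was measured at 65.8, 65.7 and 77.9 TPM at 37°C and at 17.9, 10.3 and 14.2 TPM at 26°C. Replicate 3 did not stand out for this gene, and its log2 fold change was -2.25 (SE 0.26, adjusted p = 0.0068 in limma). Its relative Rad54b was measured at 9.04, 8.44 and 6.52 TPM at 37°C and at 0.560, 0.369 and 2.39 TPM at 26°C. The log2 fold change of Rad54b was -2.21 (SE 0.40, adjusted p = 0.013 in limma), and reads could also stem from Gm11832 and Gm53245, which overlap it on the opposite strand. Rad51ap1, which stimulates strand exchange, was measured at 37.9, 31.4 and 38.6 TPM at 37°C and at 4.59, 2.40 and 14.7 TPM at 26°C. The libraries of the conditions did not overlap, and the log2 fold change was -2.46 (SE 0.52, adjusted p = 0.020 in limma).

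Rad51b, Rad51c, Rad51d, Xrcc2 and Xrcc3, which encode subunits of small complexes that assist strand exchange, differed among themselves. Rad51c was measured at 10.5, 8.44 and 5.34 TPM at 37°C and at 0.310, 0.0994 and 1.84 TPM at 26°C. The cold-acclimated values rested on only 12, 4 and 84 recovered reads, and the log2 fold change was -2.46 (SE 0.44, adjusted p = 0.012 in limma). Rad51d was measured at 16.6, 17.5 and 14.0 TPM at 37°C and at 6.76, 6.22 and 7.03 TPM at 26°C, with little spread within either group. Its decrease was smaller (log2 fold change -1.15, SE 0.23, adjusted p = 0.018 in limma) and was -0.77 (adjusted p = 0.056 in limma) after median of ratios scaling. Xrcc2 was called with the replicate block but not without it (log2 fold change -1.11, adjusted p = 0.086 in limma without and 0.015 with the block). Rad51b, Xrcc3 and Rad52 did not pass the test, with log2 fold changes between -0.78 and -0.39. For Rad51b the value depended on the scale, at -0.78 with the pseudocount of 1, -2.14 with 0.1 and -3.21 with voom, and the adjusted p was 0.40, 0.28 and 0.21 in limma. It was at or below 4.24 TPM in every library and had 0 reads in the cold-acclimated library of replicate 2, which allows up to 3 reads by counting error alone.

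Of the 6 genes of end resection, only Rad50 was downregulated, near the 16.0% of all genes, and the median was -0.76. RAD50, MRE11 and NBN form the complex that binds broken ends. Rad50 (chr11:53540346-53598146) was measured at 99.0, 89.7 and 75.1 TPM at 37°C and at 12.7, 12.6 and 24.3 TPM at 26°C. It was among the most abundant of the repair genes at 37°C, and its log2 fold change was -2.40 (SE 0.31, adjusted p = 0.0070 in limma). The nuclease gene Mre11a was measured at 40.5, 40.4 and 48.8 TPM at 37°C and at 19.3, 16.4 and 35.2 TPM at 26°C. Its groups did not overlap, but the log2 fold change of -0.92 (SE 0.32, adjusted p = 0.076 in limma) missed the call, and it remained under 1 in size with the replicate block (adjusted p = 0.026 in limma). Nbn, the regulatory subunit of the same complex, was measured at 14.7, 12.5 and 19.3 TPM at 37°C and at 15.1, 11.5 and 30.4 TPM at 26°C. The groups overlapped and the log2 fold change was 0.18 (95% interval -0.70 to 1.07, adjusted p = 0.77 in limma). The transcripts of this complex thus had log2 fold changes of -2.40, -0.92 and 0.18, and the differences among them were not tested. Rbbp8, which starts resection, and the nucleases Exo1 and Dna2, which extend it, had log2 fold changes of -0.59, -0.94 and -0.34 with adjusted p between 0.19 and 0.49 in limma. Without replicate 3, 3 of the 6 genes were called (25.3% of all genes). Mre11a then stood at -1.14 (adjusted p = 0.014 in limma) and Exo1 at -1.36 (adjusted p = 0.037 in limma).

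The 4 genes for the dissolution of joined molecules by a helicase and a topoisomerase had log2 fold changes from -2.80 to 0.60, and 1 of them was downregulated. Rmi2, a subunit of the BLM complex, was measured at 25.5, 26.7 and 39.3 TPM at 37°C and at 2.19, 1.40 and 10.5 TPM at 26°C. Its log2 fold change was -2.80 (SE 0.57, adjusted p = 0.018 in limma). Blm, the helicase, was measured at 25.0, 34.0 and 24.2 TPM at 37°C and at 9.69, 9.70 and 20.8 TPM at 26°C. The cold-acclimated library of replicate 3 lay closer to the non-acclimated libraries, and the log2 fold change of -1.07 (SE 0.34) had an adjusted p of 0.063 in limma and of 0.041 with the replicate block. Rmi1, the partner of RMI2, was measured at 19.2, 42.4 and 46.0 TPM at 37°C and at 18.4, 40.3 and 64.3 TPM at 26°C. The values followed the replicate rather than the temperature, and the log2 fold change was 0.12 (95% interval -1.07 to 1.30, adjusted p = 0.90 in limma). Rmi1 overlaps Hnrnpk on the opposite strand, and Hnrnpk stood between 401 and 982 TPM, so some of these reads may belong to it. The strand setting of the counting is not given in the sources used here.

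Top3a, the topoisomerase of this complex (chr11:60629014-60668099), was 1 of the 3 genes with a positive log2 fold change, beside Nbn and Rmi1, and the one whose groups did not overlap. It was measured at 11.0, 15.4 and 17.7 TPM at 37°C and at 24.7, 21.9 and 21.2 TPM at 26°C. All cold-acclimated libraries lay above all non-acclimated libraries. The log2 fold change was 0.60 (SE 0.26, adjusted p = 0.13 in limma). With voom on the recovered reads it was 1.00 with an adjusted p of 0.038.

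Of the 5 genes whose proteins cut joined molecules, 4 were downregulated, and the median of -2.35 was among the lowest of the groups. Mus81, a nuclease (chr19:5532589-5538461), was measured at 20.0, 19.3 and 18.9 TPM at 37°C and at 2.90, 1.62 and 3.17 TPM at 26°C. The replicates were close to each other in both conditions, and the log2 fold change was -2.55 (SE 0.28, adjusted p = 0.0067 in limma), the smallest p of the list. Eme1, which forms an active enzyme with MUS81, was measured at 30.8, 34.4 and 35.6 TPM at 37°C and at 7.59, 2.56 and 9.31 TPM at 26°C. Its log2 fold change was -2.35 (SE 0.41, adjusted p = 0.012 in limma). Gen1, another resolvase, was measured at 8.38, 15.9 and 20.5 TPM at 37°C and at 0.593, 0.609 and 5.91 TPM at 26°C. Both libraries of replicate 3 were the highest of their group, and the log2 fold change was -2.53 (SE 0.62, adjusted p = 0.029 in limma). Slx1b, a nuclease that works with SLX4, was measured at 6.60, 6.76 and 6.30 TPM at 37°C and at 2.07, 1.81 and 3.66 TPM at 26°C. Its log2 fold change was -1.14 (SE 0.29, adjusted p = 0.034 in limma) and was -0.82 (adjusted p = 0.079 in limma) after median of ratios scaling. The scaffold gene Slx4 did not pass the test (log2 fold change -0.70, adjusted p = 0.21 in limma).

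Of the 9 genes of the Fanconi core complex and its ubiquitin-conjugating enzyme, 5 were downregulated, and the median was -1.61. Ube2t, the conjugating enzyme, was measured at 35.8, 30.2 and 25.3 TPM at 37°C and at 4.18, 2.84 and 9.50 TPM at 26°C. The conditions were well separated, and the log2 fold change was -2.39 (SE 0.39, adjusted p = 0.010 in limma). The catalytic subunit Fancl, to which UBE2T binds, was called with the replicate block but not without it (log2 fold change -1.20, adjusted p = 0.053 in limma without and 0.020 with the block). Fanca was measured at 32.1, 32.2 and 27.8 TPM at 37°C and at 8.95, 5.83 and 12.5 TPM at 26°C. Fancg, which binds FANCA, was measured at 22.2, 18.8 and 27.9 TPM at 37°C and at 3.45, 3.53 and 11.1 TPM at 26°C. Both were lower in every cold-acclimated library, with log2 fold changes of -1.71 (SE 0.30, adjusted p = 0.012 in limma) for Fanca and -1.92 (SE 0.43, adjusted p = 0.022 in limma) for Fancg.

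Fancc, another core subunit, was measured at 21.8, 11.5 and 12.7 TPM at 37°C and at 2.53, 1.97 and 5.18 TPM at 26°C. It decreased with a log2 fold change of -1.97 (SE 0.38, adjusted p = 0.016 in limma), while Aopep, which overlaps it on the opposite strand, had a log2 fold change of 0.50 (adjusted p = 0.24 in limma). Fancm, a translocase that anchors the complex to DNA (chr12:65120884-65178616), was measured at 4.44, 7.25 and 8.05 TPM at 37°C and at 1.07, 1.10 and 2.29 TPM at 26°C. Its log2 fold change was -1.61 (SE 0.34, adjusted p = 0.019 in limma). Fancb was called with the replicate block but not without it (log2 fold change -1.56, adjusted p = 0.099 in limma without and 0.011 with the block). Fance and Fancf did not pass the test, with log2 fold changes of -0.37 and -0.60. For Fance the replicates were close and the 95% interval was -0.88 to 0.14, which leaves out a change of 1 on the log2 scale.

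The substrates of the core complex were both downregulated. Fanci (chr7:79042056-79100013) was measured at 27.2, 31.0 and 22.1 TPM at 37°C and at 2.39, 2.96 and 5.67 TPM at 26°C. The log2 fold change was -2.62 (SE 0.33, adjusted p = 0.0070 in limma), and the ratio of the means was 7.29. Fancd2 (chr6:113508622-113573981) was measured at 22.2, 19.8 and 11.8 TPM at 37°C and at 1.90, 0.843 and 7.08 TPM at 26°C. In replicate 3 both values were nearer to each other, and the log2 fold change was -2.39 (SE 0.55, adjusted p = 0.024 in limma). The RNA Gm38874, which overlaps Fancd2 on the opposite strand, also decreased (log2 fold change -2.28, adjusted p = 0.0093 in limma). Fan1, a nuclease recruited by the modified FANCD2, did not pass the test (log2 fold change -0.46, adjusted p = 0.37 in limma) and stood between 2.11 and 6.52 TPM in all libraries.

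Of the 6 genes of checkpoint signalling, 5 were tested and 3 were downregulated, with a median of -2.00. Atm, the kinase that responds to double-strand breaks (chr9:53348422-53448125), was measured at 33.9, 21.2 and 21.9 TPM at 37°C and at 5.03, 4.21 and 7.85 TPM at 26°C. Its log2 fold change was -2.00 (SE 0.31, adjusted p = 0.0093 in limma). Chek2, which encodes its target kinase CHK2 (chr5:110987668-111022006), was measured at 11.7, 11.1 and 9.53 TPM at 37°C and at 0.754, 0.300 and 2.67 TPM at 26°C. The cold-acclimated values rested on 29, 12 and 121 recovered reads, and the log2 fold change was -2.53 (SE 0.41, adjusted p = 0.0099 in limma). Atr, the kinase that responds to stalled replication, was measured at 13.8, 14.7 and 14.6 TPM at 37°C and at 2.99, 1.83 and 5.10 TPM at 26°C. The non-acclimated libraries were within a narrow range, and the log2 fold change was -1.91 (SE 0.33, adjusted p = 0.012 in limma).

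The other genes of the ATR branch were uneven among the replicates. Chek1, which encodes the target kinase CHK1, was measured at 24.2, 39.0 and 46.8 TPM at 37°C and at 3.95, 3.77 and 27.7 TPM at 26°C. The cold-acclimated library of replicate 3 lay above the non-acclimated library of replicate 1, so the conditions overlapped. The log2 fold change was -2.05 (SE 0.69), with an adjusted p of 0.070 in limma and of 0.014 with the replicate block. Topbp1, an activator of ATR, was the most abundant gene of the list, at 186, 184 and 187 TPM at 37°C and at 73.2, 57.1 and 158 TPM at 26°C. Its log2 fold change of -1.08 (SE 0.37) had an adjusted p of 0.075 in limma and of 0.031 with the replicate block. Atrip, the partner of ATR, was the gene that could not be tested. It was listed at 0 in all 6 libraries, and it overlaps Gm53191 on the same strand, which stood between 0.165 and 1.04 TPM.

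**Figure D2:**
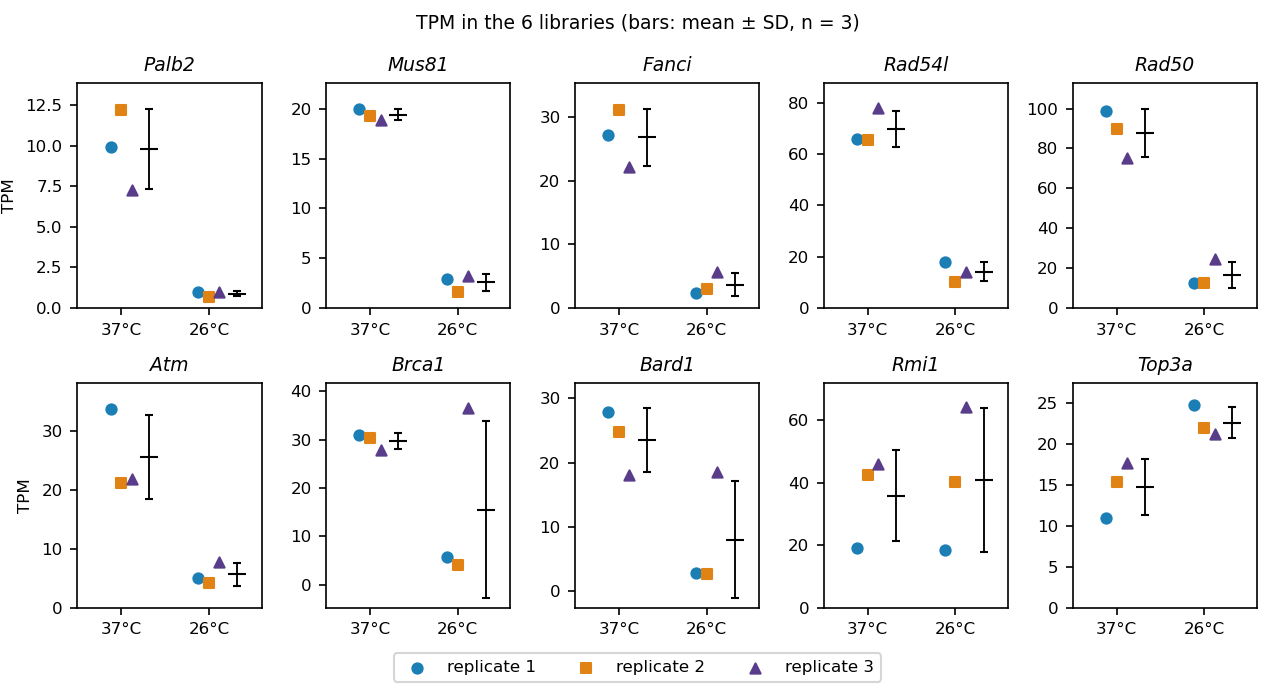
TPM of 10 genes in the 3 libraries at 37°C and the 3 at 26°C, with 1 symbol per replicate and the mean ± SD (n = 3) beside them. Palb2, Mus81, Fanci, Rad54l, Rad50 and Atm were lower in all cold-acclimated libraries, Brca1 and Bard1 kept 36.6 and 18.5 TPM in replicate 3 at 26°C, Rmi1 followed the replicate, and Top3a was higher in all cold-acclimated libraries.

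Further genes of the same pathways, not among the 47, were taken from a list of 63 partners. Of these, 61 were tested and 16 were downregulated (26.2%, against 16.0% of all genes), while 1 was upregulated (2.63% of all genes). The difference from the 47 was not tested. Their median log2 fold change was -0.62. The 6 with the smallest p included the helicase genes Recql5 (log2 fold change -2.56, SE 0.27, adjusted p = 0.0067 in limma) and Wrn (-2.27, SE 0.35, adjusted p = 0.0089). The anti-recombination gene Parpbp had a log2 fold change of -3.06 (SE 0.46, adjusted p = 0.0085 in limma) and Fignl1, which encodes an ATPase, one of -2.98 (SE 0.41, adjusted p = 0.0075). Wdr48, a cofactor of the enzyme that takes ubiquitin off FANCD2, had a log2 fold change of -2.00 (SE 0.30, adjusted p = 0.0085 in limma), and Mdc1, a scaffold at damaged chromatin, one of -1.85 (SE 0.31, adjusted p = 0.011). The upregulated gene was Shld3, a subunit of the shieldin complex, which protects ends from resection. Shld3 was measured at 4.92, 5.97 and 5.61 TPM at 37°C and at 18.9, 23.2 and 27.9 TPM at 26°C, with no overlap. Its log2 fold change was 1.89 (SE 0.25, adjusted p = 0.0074 in limma). H2ax was listed at 0 in all libraries and Shld1 did not reach the filter.

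Genes of the cell cycle were examined beside the repair genes. Of 44 genes of S phase, 7 were downregulated (15.9%, near the 16.0% of all genes), with medians of -1.32, -2.29 and -0.40 in replicates 1, 2 and 3. Of 53 genes of G2 and M phase, 16 were downregulated (30.2%), with medians of -1.97, -2.77 and -0.01. The fold change was negative for 43 of the 44 S phase genes and for all 53 G2 and M phase genes (66.5% of all genes). With the replicate block, the counts called downregulated for S phase and for G2 and M phase were 28 and 26 (21.9% of all genes). They were 3 and 8 with median of ratios scaling (8.60% of all genes) and 3 and 9 with voom (9.51% of all genes). Without replicate 3 they were 34 of 44 and 51 of 53, beside 34 of the 46 repair genes (25.3% of all genes). Mki67, a marker of dividing cells, was measured at 230, 235 and 163 TPM at 37°C and at 62.1, 43.1 and 173 TPM at 26°C. At 26°C it was low in replicates 1 and 2 and held its level in replicate 3, as Brca1 and Bard1 did. In replicate 3 the median was -0.01 for the G2 and M phase genes, -0.40 for the S phase genes and -0.88 for the repair genes. The part of the cell cycle genes in the change of the repair genes was not tested. The plot of list medians by replicate shows these values side by side.

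**Figure D3:**
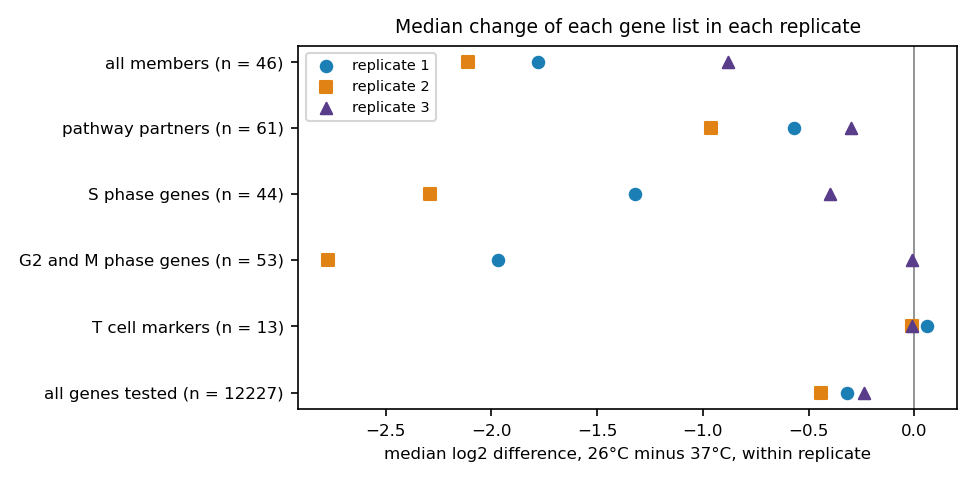
Median difference in log2(TPM + 1) between 26°C and 37°C within each replicate, for the repair genes, their pathway partners, S phase genes, G2 and M phase genes, T cell markers and all genes tested (number of genes in brackets). In replicate 3 the repair genes had a median of -0.88, the S phase genes -0.40, the G2 and M phase genes -0.01 and all genes -0.24.

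Some of the repair genes start back to back with another gene, which gave a comparison within the same stretch of DNA. This comparison was chosen after the values had been seen. Of 868 pairs of protein-coding genes on opposite strands with starts within 1000 bases of each other, 17 held a repair gene. The ratio of both genes was taken within each library and tested with limma over all 868 pairs. By the same thresholds of adjusted p and size, the change of the repair gene differed from that of its neighbour in 8 of the 17 pairs (47.1%), against 32.6% of all pairs. The repair gene had the lower change in 7 of the 8 and the higher change in 1. All of the 7 had already been called downregulated in these libraries, so this direction follows from the same values. The direction has no counterpart among all pairs, since most hold no repair gene.

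The DNA between the starts is shown on the strand of the repair gene for 5 of these 8 pairs. In these 5 the repair gene had the lower change and the gene models do not overlap. They are shown because the paired genes had unlike changes although their starts lie so close, with only 20 bases between those of Chek2 and Hscb. The interval of Top3a and Smcr8, whose models do not overlap either, is not shown. The capitals mark CCAAT read on either strand, the motif among those searched that was found. On GRCm39 the intervals are chr5:110987648-110987667 for Chek2 and Hscb, chr6:113508600-113508621 for Fancd2 and Emc3, chr7:121732204-121732263 for Palb2 and Dctn5, chr12:65120713-65120883 for Fancm and Fkbp3, and chr9:53448126-53448346 for Atm and Npat.
Chek2 and Hscb: accgtctcgctgctgATTGG
Fancd2 and Emc3: tccggtgcgggcgagtaacgtc
Palb2 and Dctn5: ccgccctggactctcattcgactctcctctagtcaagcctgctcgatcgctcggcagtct
Fancm and Fkbp3: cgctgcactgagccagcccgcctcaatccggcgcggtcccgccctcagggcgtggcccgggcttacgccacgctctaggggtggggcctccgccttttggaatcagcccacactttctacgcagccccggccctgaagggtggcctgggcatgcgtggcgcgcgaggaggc
Atm and Npat: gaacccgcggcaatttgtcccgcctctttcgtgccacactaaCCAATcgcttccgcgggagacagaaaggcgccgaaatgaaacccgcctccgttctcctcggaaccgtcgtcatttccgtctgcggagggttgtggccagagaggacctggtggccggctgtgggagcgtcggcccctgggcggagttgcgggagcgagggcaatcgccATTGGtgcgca

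CCAAT was found between Chek2 and Hscb and between Atm and Npat, and none of the motifs searched was found in the other 3 intervals. Emc3, a subunit of a membrane protein complex, was measured at 107, 111 and 81.4 TPM at 37°C and at 114, 96.7 and 110 TPM at 26°C, whereas Fancd2 decreased in every replicate. The difference of their changes was -2.49 on the log2 scale (SE 0.47, adjusted p = 0.0038 in limma). Hscb, which helps to assemble iron-sulfur clusters, was measured at 75.3, 64.0 and 40.9 TPM at 37°C and at 57.4, 52.8 and 45.9 TPM at 26°C, and the change of Chek2 was lower by a difference of -2.36 (SE 0.44, adjusted p = 0.0035 in limma). Npat, an activator of histone genes, was measured at 32.6, 27.1 and 22.5 TPM at 37°C and at 31.6, 27.8 and 33.7 TPM at 26°C. It stood at a level similar to Atm at 37°C but not at 26°C, with a difference of -2.18 (SE 0.30, adjusted p = 0.0010 in limma).

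Dctn5, a dynactin subunit, had a log2 fold change of -0.52 beside Palb2, and the difference was -1.98 (SE 0.28, adjusted p = 0.0012 in limma). Fkbp3, a nuclear immunophilin, had a log2 fold change of 0.21 beside Fancm, and the difference was -1.82 (SE 0.31, adjusted p = 0.0021 in limma). Eme1 and Mrpl27, a gene of the mitochondrial ribosome, differed by -2.10 (SE 0.41, adjusted p = 0.0045 in limma). Gen1 differed from Smc6, a gene of another repair complex, by -2.05 (SE 0.49, adjusted p = 0.0097 in limma). The models of these last pairs overlap by 19 and 144 bases, so a few reads could be counted for the wrong gene.

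Top3a showed the opposite arrangement. Its neighbour Smcr8, which acts in autophagy, was measured at 28.0, 34.9 and 38.3 TPM at 37°C and at 18.6, 10.8 and 11.8 TPM at 26°C. Smcr8 was downregulated (log2 fold change -1.26, SE 0.28, adjusted p = 0.022 in limma), and the change of Top3a was higher by 1.87 (SE 0.29, adjusted p = 0.0015 in limma). The difference had the same sign in all 3 replicates, at 1.66, 2.08 and 1.86. Since both genes are compared within a library, the scaling between libraries cancels, apart from the effect of the pseudocount.

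In the other 9 pairs a difference was not called. Slx1b and Bola2 differed by -1.17 (SE 0.44), with an adjusted p of 0.059 in limma and of 0.046 with the replicate block. Nbr1, an autophagy receptor gene that starts beside Brca1, was measured at 62.7, 65.9 and 29.9 TPM at 37°C and at 13.4, 24.3 and 28.3 TPM at 26°C. Nbr1 and Brca1 had log2 fold changes of -1.21 and -1.48, and the 95% interval of the difference was wide, from -1.59 to 1.03. D6Wsu163e, beside Rad51ap1, was downregulated with a log2 fold change of -2.02 (adjusted p = 0.043 in limma), and the interval of that difference was -1.09 to 0.21.

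**Figure D4:**
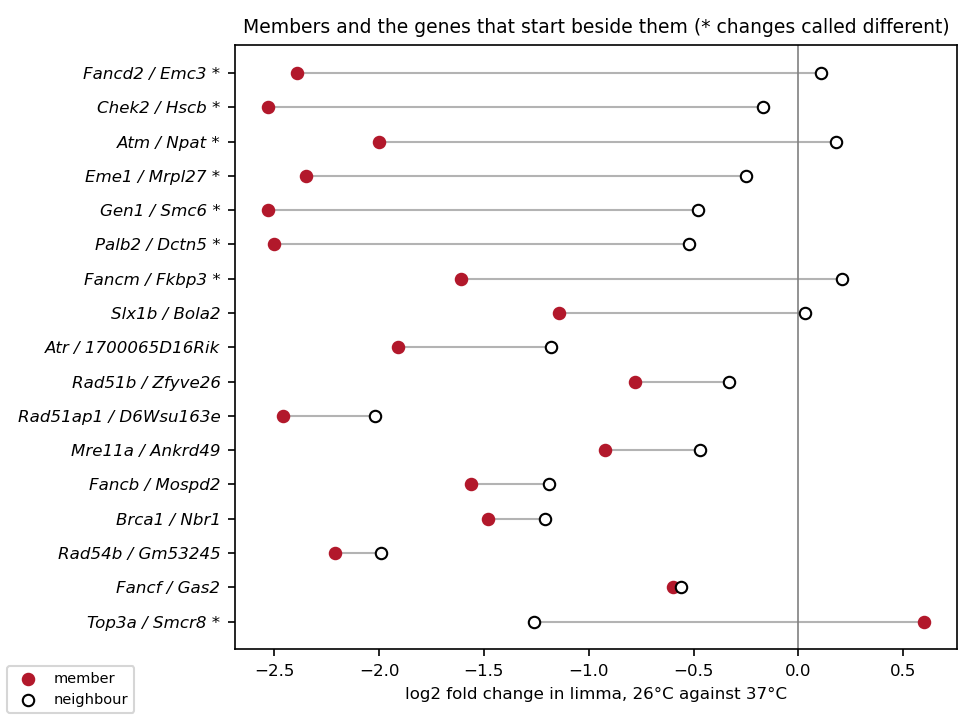
Log2 fold change in limma between 26°C and 37°C of the repair gene (filled) and of the gene that starts beside it on the opposite strand (open) in 17 pairs, ordered by the difference. Asterisks mark the 8 pairs whose changes were called different, 7 with the repair gene lower and 1, Top3a, with it higher.

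The repair genes were long and of ordinary abundance. Their median counted length was 5580 bases, compared with 3240 bases for all genes tested, and their median level at 37°C was 21.0 TPM, compared with 23.5 TPM. Across the 46 genes, which share libraries and are not independent, the log2 fold change had a rank correlation (Spearman) of 0.18 with the counted length and of -0.16 with the level at 37°C. Chromosome 11 held 8 of the 47 genes (17.0%), against 8.82% of all genes tested, and chromosomes 7 and 9 held 6 each. The genes on chromosome 11 included both the strongly decreased Rad50 and Rad51c and Top3a, which had a positive log2 fold change. Of the 46 genes, 36 had at least 50 recovered reads in every library. Another gene overlapped 20 of the 47, on the same strand for 6 and on the opposite strand for 16, and the values of these genes are less certain for that reason.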

How the data were processed

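Poly(A)+ RNA of 6 strand-specific libraries was sequenced as paired-end reads. Per the submitters' processing notes, FastQC 0.11.7, Trimmomatic 0.38, HISAT2 2.1.0, featureCounts 1.6.3 and the mouse build GRCm39 were used. The authors deposited TPM values, that is, counts divided by gene length and scaled to the same total in every library. Not given in the sources used here are the annotation release, gene lengths, strand setting and conversion to TPM. Reads were recovered from the steps of the TPM values and were whole within 1e-06 reads for 100% of the 21195 genes with a value above 0. The step of a gene was chosen to make its values whole, so this does not by itself show that the counts are right. In simulated data every count was recovered for a share of 0.9887 of the genes. At these depths the precision of a value follows from its recovered reads, and counting intervals would cover counting error only.

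The two-sided test was that of limma 3.58.1 (R 4.3.3), applied to log2(TPM + 1) of the 12227 genes whose mean TPM reached 1, with a trended prior and no replicate term. Calls required an adjusted p (Benjamini-Hochberg) below 0.05 and an absolute log2 change of 1 or more. Tables and plots were made in Python 3.11.15. The scripts were tested on simulated data with 200 changed genes, without differences shared by the libraries of a replicate. All 200 were called with the right sign by the main fit, the replicate block and voom. Beside them 23, 41 and 1 unchanged genes were called, of 12201 genes tested, so calls with the block held the most false ones there. The alternatives were a pseudocount of 0.1, no filter, median of ratios scaling (named in the study's methods), a replicate block, both together, voom with TMM on the recovered reads, each library left out, and replicate 3 left out. The study's methods name a count-based test. The deposited unit is TPM, so limma on TPM was the main test here, and voom was the test on the recovered reads.

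Libraries with the same replicate number deviated together from their condition's mean (r = 0.48, 0.50 and 0.51 across genes, and between -0.41 and 0.02 for different numbers). By this measure the replicate numbers paired the libraries, a pairing read from the data.

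The 47 genes, the 63 partners, the lists of S phase genes, G2 and M phase genes and cell type markers, and the tests were chosen with earlier results of these data known. Genes called by limma, the 2 with the smallest p in each role group and those against their group's direction were given with all values, of the partners at most 6 called ones in each direction, and Brca1, Bard1, Chek1, Topbp1 and the head-to-head neighbours were added after their values were seen. Promoters came from RefSeq on GRCm38.p6, and intervals between starts from the GRCm39 genome.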

Additional observations from a re-analysis of the deposited data

How the results depend on the processing

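The median log2 fold change of the repair genes and its distance from the median of all genes kept their direction under every alternative and stayed within the spread of the replicates. The number called downregulated was 24 with a pseudocount of 0.1 and 16 without a filter on low values. It was 22 with median of ratios scaling (8.60% of all genes), 22 with voom (9.51%) and 31 with the replicate block (21.9%). It was 24 with the block and median of ratios scaling together, where 1515 of all 12227 genes tested were called. When each library was left out in turn it ranged from 7 to 34, and the number lower at an adjusted p under 0.05 from 7 to 35. The share of all genes was not counted with the pseudocount of 0.1, without the filter or for the last range. Those counts therefore cannot be read against it. Calls were fewest without non-acclimated replicate 2 (7), cold-acclimated replicate 1 (9), non-acclimated replicate 1 (10) and cold-acclimated replicate 2 (13), and most without cold-acclimated replicate 3 (34). These fits have fewer libraries. Beside the 7 genes that kept the call in all 6 of these fits, Eme1 and Chek2 kept it in 5. Rad51c, Fanca, Fancm, Ube2t and Atr kept it in 3. Rad51d, Rad51ap1, Rad54b, Rmi2, Fancc and Fancd2 kept it in 2. Brip1, Gen1, Slx1b and Fancg kept it in only 1. One gene, Top3a, was higher at an adjusted p under 0.05 with median of ratios scaling (1 of 46), with the block and that scaling (1) and with voom (1). Of the partners, 8 were downregulated without the filter and 10 with median of ratios scaling (8.60% of all genes). Between 5 and 25 were downregulated with a library left out (2.82% to 22.3% of all genes). Upregulated were 3 with median of ratios scaling (6.87% of all genes), 3 with voom (5.91%) and 2 without replicate 3 (5.34%). With the block and median of ratios scaling 5 were upregulated, where 1129 of all 12227 genes tested were. With a library left out 1 to 2 were upregulated, and the share of all genes was not counted there. The cause was not tested. Some log2 fold changes near 0 changed sign. Nbn was at -0.04 without replicate 3 and between -0.20 and 0.47 with a library left out, and Rmi1 at -0.06 without replicate 3 and between -0.29 and 0.59 with a library left out. Dna2 and Fance were both at 0.03 with median of ratios scaling, with or without the replicate block. Between 8 and 9 of the 17 head-to-head pairs were called different under the alternatives run for them, all chosen after seeing the data. Depth limits the lowest values most, such as Rad51c with 4 recovered reads in 1 library.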
